A study of Heterocephalus glaber and Mus musculus with 6 samples.

Results

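Nuclear receptors are transcription factors, many of which are switched on by small fat-soluble molecules such as steroid hormones, thyroid hormone, retinoic acid, vitamin D, fatty acids and oxidised sterols. They bind short DNA elements through a pair of zinc fingers, most often as a dimer, and exchange corepressors for coactivators when the ligand docks. In epidermis the retinoic acid, vitamin D, glucocorticoid, thyroid hormone and PPAR (peroxisome proliferator-activated receptor) branches are known for their roles in keratinocyte growth, differentiation and the lipid barrier.

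The family was taken from the mouse annotation by gene symbol and comprised 46 genes. It covers the NR0 to NR6 symbols with a single letter and digit, the retinoic acid, retinoid X, ROR, PPAR, thyroid hormone, oestrogen and oestrogen-related receptors, and the vitamin D and progesterone receptors; the androgen receptor gene falls outside these symbols. Of the 46 genes, 31 had a row under their own Ensembl identifier among the 54364 rows of each mouse table, and 17 were measured, which here means that the counts of the 3 libraries averaged 10 or more. The libraries were made from CD49f-sorted keratinocytes of the dorsal epidermis of untreated FVB mice aged 7 to 8 weeks, in a study that compared them with naked mole-rat keratinocytes. The naked mole-rat identifiers were not paired with gene names here, and the receptors are described in the mouse alone, as 1 group of 3 libraries with no test between conditions. CD49f (integrin alpha-6) marks basal keratinocytes and is also found on other cells such as endothelium. The labels do not say whether the 3 libraries came from separate animals, so an SD is the spread between these libraries and may be technical in part.

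The mouse libraries held 52499080, 53465434 and 52970733 counts, of which 10.6% to 11.5% lay in rows with an Ensembl identifier and the rest in assembled loci without a gene name. The keratinocyte label could be checked on few markers: of 12 basal markers Itga2 alone had a row (2807, 2626 and 2246 counts), and Krt5, Krt14, Itga6 and Trp63 were not analysed here. Library 1 stood apart by the Y-linked gene Ddx3y, with 3483, 0 and 0 counts in libraries 1, 2 and 3, so it held RNA of at least 1 animal that the other libraries did not. Library 3 stood apart by genes of mitosis: all 15 measured genes of that list were at least 1.5-fold lower there than the mean of the other libraries (15.4% of all measured named genes were), with a summed level of 225, 195 and 90.6 CPM. CPM is the count per 1000000 counts of a library.

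The first zinc finger identifies the family and carries the P box, the few codons that set which DNA half-site a receptor prefers. It was found in the longest coding transcript of all 17 measured genes. The DNA of that stretch, from the opening cysteine codon of the finger to the end of the P box, is shown for 8 genes described below, chosen to show the most common P box in several spellings, that of the oestrogen receptors, and closely related pairs. The sequences are from GENCODE M21 transcripts on GRCm38, 5′ to 3′ on the coding strand, with the 15 bases of the P box in capitals. For Rara, Ppara, Ppard, Nr2c2 and Thrb the coordinates span an intron that the printed sequence leaves out.
Rara, chr11:98966430-98968047, plus strand: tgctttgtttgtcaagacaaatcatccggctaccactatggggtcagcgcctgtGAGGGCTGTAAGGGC
Ppara, chr15:85787203-85788981, plus strand: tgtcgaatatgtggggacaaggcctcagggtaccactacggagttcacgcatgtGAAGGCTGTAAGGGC
Ppard, chr17:28295430-28297088, plus strand: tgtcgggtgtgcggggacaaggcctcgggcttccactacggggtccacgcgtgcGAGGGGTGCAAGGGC
Nr2c2, chr6:92152390-92154375, plus strand: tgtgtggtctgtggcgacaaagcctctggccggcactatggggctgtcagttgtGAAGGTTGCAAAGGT
Thrb, chr14:18002563-18008571, plus strand: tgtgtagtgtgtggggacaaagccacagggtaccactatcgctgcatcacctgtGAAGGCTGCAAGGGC
Nr4a2, chr2:57111585-57111653, minus strand: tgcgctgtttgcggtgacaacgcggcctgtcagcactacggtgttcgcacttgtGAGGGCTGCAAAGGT
Nr4a3, chr4:48052124-48052192, plus strand: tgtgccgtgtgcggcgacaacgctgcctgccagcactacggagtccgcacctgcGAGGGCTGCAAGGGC
Esr1, chr10:4746717-4746785, plus strand: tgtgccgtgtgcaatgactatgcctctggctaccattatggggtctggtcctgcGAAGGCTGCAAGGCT

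The measured receptors encoded 4 different P boxes. The most common was shared by 13 genes, among them the retinoic acid, thyroid hormone, PPAR and NR4A receptors, and was written in 12 different DNA spellings. Esr1 and Esr2 shared a second, while the mineralocorticoid receptor Nr3c2 and the COUP-TF receptor Nr2f2 each had one of their own. Over the 69 bases, the 136 pairs of genes had a median identity of 65.2%, from 53.6% to 82.6%. Nr4a2 and Nr4a3 were the closest pair with 57 identical bases, followed by Esr1 and Esr2 with 56, and Ppara with Ppard and with Pparg at 55 each. Nr2c1 and Nr2c2 shared 53 bases.

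**Figure D1:**
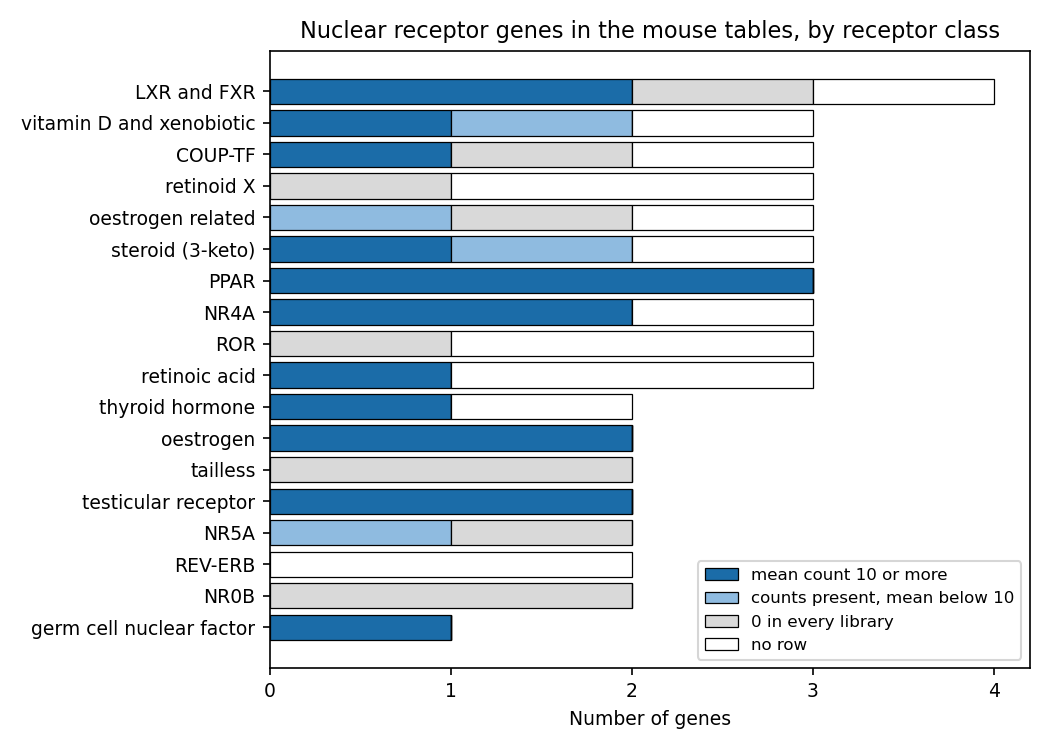
The 46 nuclear receptor genes by receptor class. Bars count the genes of a class that were measured (mean count of 10 or more), had counts below that mean, had 0 counts in every library, or had no row; all 3 PPAR genes were measured and neither REV-ERB gene had a row.

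Every PPAR, oestrogen receptor and testicular receptor gene was measured, while the REV-ERB, retinoid X and ROR classes had no measured gene. A total of 15 genes (32.6% of 46) had no row under their own identifier and were not analysed here. Of all 22028 protein-coding genes, 33.7% likewise had none. The genes without a row included Vdr (vitamin D), Rxra and Rxrb (the shared dimer partners), Rarg and Rarb (retinoic acid), Nr3c1 (glucocorticoid), Rora, Thra, Nr1d1 and Nr1d2 (the clock repressors REV-ERB alpha and beta), Nr1h2 (a liver X receptor), Esrra, Nr2f6 and Nr4a1. Nothing is said here of their level.

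The rows at 0 in all 3 libraries were 10, or 32.3% of the 31 rows, against 41.5% of the 14605 protein-coding rows. They were Nr2e1 (tailless, of neural stem cells), Nr2e3 (of photoreceptors), Nr1h4 (the bile acid receptor), Nr5a2 (of liver and intestine), the atypical receptors Nr0b1 and Nr0b2, which lack the DNA-binding zinc fingers, and Nr2f1, Esrrb, Rorb and Rxrg. In libraries of this depth 3 counts, about the one-sided 95% upper limit for a count of 0, equal 0.0561 to 0.0571 CPM, for counting error only. A further 4 genes had a mean below 10 counts. The progesterone receptor Pgr had 6, 9 and 4 counts in libraries 1, 2 and 3, the xenobiotic receptor Nr1i2 had 5, 0 and 7, Esrrg had 9, 2 and 0, and Nr5a1, of steroid-producing glands, had 4, 4 and 0. Each was at or near the floor in at least 1 library.

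Corrected for length, the highest measured receptors were the retinoic acid receptor Rara and the fatty acid receptor Ppara. Rara had 7.59, 8.23 and 7.58 CPM per kilobase of exon in libraries 1, 2 and 3, a mean of 7.80 ± 0.371 (SD, n = 3). Ppara had 7.34, 7.88 and 7.29, a mean of 7.50 ± 0.330. The ranges of these genes overlapped, so their order is not resolved, and both lay above every value of Nr2c2 (6.53, 5.71 and 5.79; mean 6.01 ± 0.451). These 3 genes were above 4.56 CPM per kilobase, the upper quartile of the 6594 measured protein-coding genes, whose median was 2.11. The 33.7% of protein-coding genes without a row, Krt5 and Krt14 among them, are outside that comparison. Lengths were the union of annotated exons. With the longest transcript as the length, Nr2c2 came out highest at 11.7 CPM per kilobase, ahead of Rara at 10.1 and Ppara at 8.43, so which gene leads depends on the length used.

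A middle group of 3 followed, in which neighbours overlapped. Nr2c1, the testicular receptor most like Nr2c2, had a mean of 3.37 ± 0.269 CPM per kilobase, the thyroid hormone receptor Thrb 3.25 ± 0.0190 and Ppard 3.20 ± 0.314. Nr6a1, an orphan receptor named germ cell nuclear factor, stood apart from both sides at 1.85 ± 0.170. The other 10 measured genes lay between 1.07 (Nr4a2) and 0.0472 CPM per kilobase (Nr1i3), and the median of the 17 was 1.04. Of the 16 neighbouring pairs in the order, 7 did not overlap between libraries.

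**Figure D2:**
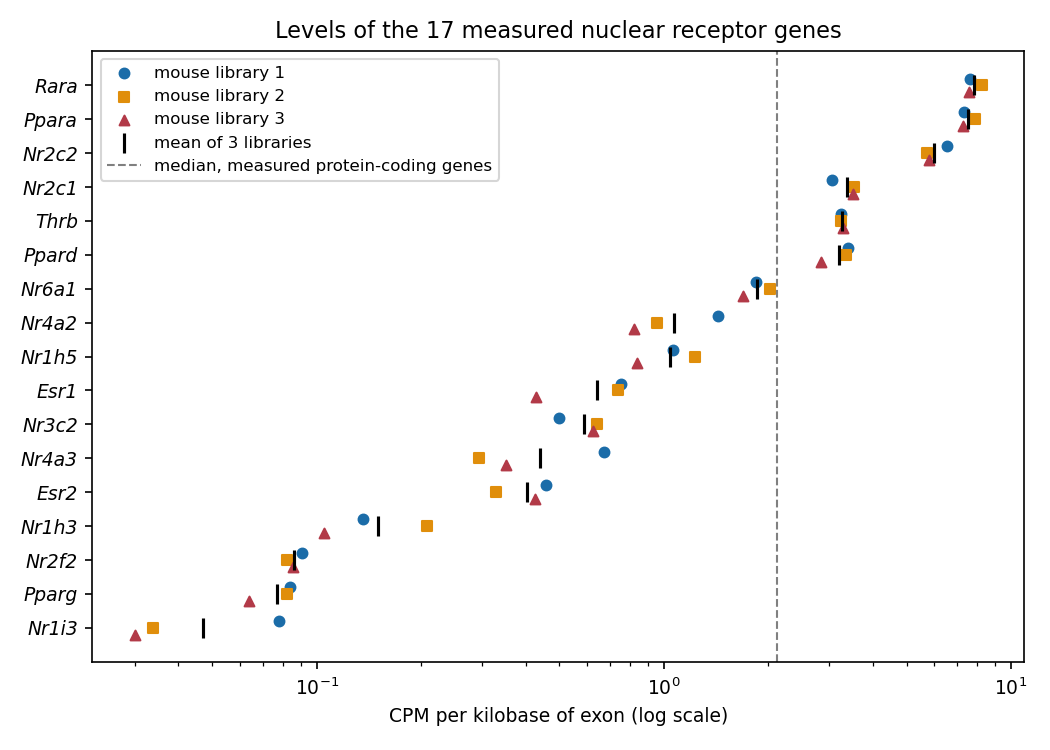
CPM per kilobase of exon (log scale) of the 17 measured receptor genes in each mouse library, with the mean as a vertical tick and the median of measured protein-coding genes, 2.11, as a dashed line. The 6 genes from Rara to Ppard lie above that median in every library, and the 11 others have means below it.

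Among retinoid and thyroid hormone receptors, Rara had 1740, 1920 and 1752 counts in libraries 1, 2 and 3 (34.0 ± 1.62 CPM). Its protein binds retinoic acid as a dimer with a retinoid X receptor, and it was the measured gene of its class of 3. Thrb, 1 of the 2 thyroid hormone receptor genes, had 1258, 1283 and 1283 counts, or 24.1 ± 0.140 CPM. Library 2 was highest for Rara, by little, and the 3 libraries were nearly level for Thrb, whose SD was below the 0.674 CPM that counting error alone gives at this depth.

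The PPAR genes, which encode sensors of fatty acids and their derivatives, differed widely in level. Ppara, known for driving fatty acid oxidation, had 1478, 1617 and 1481 counts (28.8 ± 1.27 CPM). Ppard, which is broadly expressed and active in keratinocytes, had 1341, 1349 and 1129 counts (24.0 ± 2.36 CPM). Pparg, the receptor of fat cells and sebocytes, had 13, 13 and 10 counts, a mean of 0.0767 CPM per kilobase against 7.50 for Ppara. Libraries 1 and 2 were level for Ppard and library 3 was lower, and no library of Pparg came near any of Ppara or Ppard. Of the 7 adipocyte markers, Adipoq, Lep, Plin1, Cidec, Fabp4 and Retn had 0 counts in every library, and Lipe, a lipase gene, had 186, 164 and 151. Of the 10 sebaceous markers, which include Pparg itself, 3 had a row: Pparg, Awat2 with 27, 15 and 22 counts, and Awat1 with 0.

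Nr2c1, Nr2c2 and Nr6a1 are orphan receptors, for which no hormone is established, and Nr2c2 had the most counts of any measured receptor. Nr2c2 had 5120, 4563 and 4581 counts, with exact 95% Poisson intervals of 4981 to 5262, 4432 to 4697 and 4449 to 4716, so library 1 was higher than the others beyond counting error. Its level was 97.5, 85.3 and 86.5 CPM. Nr2c1 had 740, 872 and 856 counts (15.5 ± 1.24 CPM), with library 1 lowest, and Nr6a1 had 1046, 1173 and 967 (19.9, 21.9 and 18.3 CPM), with library 2 highest. None of the 3 genes reached 1.5-fold between its highest and lowest library. Of the exon bases of Nr2c2, 30.7% overlap Mrps25, a mitochondrial ribosomal protein gene on the opposite strand, which had 990, 1785 and 905 counts. Whether the counting used strand is not given in the sources used here, so reads in the overlap may belong to either gene.

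Lower members of the lipid, xenobiotic and developmental classes came next. Nr1h5, known in mice as a lanosterol-binding relative of the bile acid receptor, had 158, 186 and 126 counts (2.96 ± 0.552 CPM). Nr1h3, the oxysterol receptor LXR alpha, had 18, 28 and 14 counts. Nr2f2, known from veins and mesenchyme, had 41, 38 and 39 counts, level across libraries. Nr1i3, the constitutive androstane receptor of liver, had 18, 8 and 7 counts, and 74.9% of its exon bases overlap Tomm40l on the opposite strand, which had 887, 915 and 812 counts. Of 8 endothelial markers 3 were measured: Flt1 had 129, 105 and 63 counts, Vwf 25, 24 and 14, and Pecam1 10, 14 and 11, while Kdr, Cdh5 and Emcn had 0. Of 10 fibroblast and dermis markers 3 were measured: Col6a3 had 2603, 3345 and 2830 counts, Fn1 415, 874 and 468, and Dcn 26, 31 and 29, while Pdgfrb and Lum had 0. The fibroblast list summed to 58.0, 79.5 and 62.8 CPM. In libraries from many cells, fewer cells of a type and less RNA per cell cannot be told apart, and the part of other cell types in these low values was not tested.

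Among steroid receptors, Esr1 differed most between libraries. Esr1, oestrogen receptor alpha, had 541, 539 and 310 counts, or 10.3, 10.1 and 5.85 CPM. Libraries 1 and 2 were level and library 3 was lower, with an exact 95% Poisson interval of 276 to 347 counts against 496 to 589 and 494 to 586. On the log2 scale library 3 deviated by −0.80 from the mean of the others. Esr2, oestrogen receptor beta, had 81, 59 and 76 counts (1.36 ± 0.229 CPM), with library 3 between the others, so the 2 oestrogen receptors did not share a pattern. Nr3c2, the mineralocorticoid receptor, which also binds glucocorticoids, had 170, 222 and 214 counts (3.81 ± 0.499 CPM) and was lowest in library 1. Library 3 is also the library in which the 15 mitosis genes were low. Its endothelial markers (3 of 8 measured) summed to 1.66 CPM against 3.12 and 2.67. Its melanocyte markers (3 of 8 measured) summed to 8.31 CPM against 10.2 and 10.6. Most of the melanocyte sum was Mitf (9.66, 9.56 and 7.65 CPM in libraries 1, 2 and 3). Dct was highest in library 3 (15, 13 and 17 counts) and Kit was lowest in library 1 (12, 45 and 18). Hair follicle markers (3 of 11 measured) summed highest in library 3 (33.6, 39.6 and 46.4 CPM), mostly Foxn1. Lgr5 was lowest there (36, 59 and 9 counts). T cell sums (1.10, 1.65 and 2.04 CPM) and muscle sums (3.20, 2.97 and 3.36) were also highest in library 3. The myeloid marker Lyz2 had 0, 0 and 59 counts. The myeloid, basal, suprabasal and adipocyte lists summed lowest in library 3. The part of these in the Esr1 value was not tested.

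The NR4A genes, ligand-independent receptors that cells induce within minutes to hours of stimulation, were highest in library 1. Nr4a2 had 305, 208 and 176 counts, or 5.81, 3.89 and 3.32 CPM. Nr4a3 had 212, 94 and 111 counts, or 4.04, 1.76 and 2.10 CPM. For both genes library 1 lay outside the exact 95% Poisson intervals of the others: 184 to 243 counts for Nr4a3 against 76.0 to 115 and 91.3 to 134, and 272 to 341 for Nr4a2 against 181 to 238 and 151 to 204. The log2 deviations of library 1 were 0.69 and 1.07. Without library 1 the highest to lowest ratio fell to 1.17 for Nr4a2 and 1.19 for Nr4a3, and without library 3 that of Nr4a2 was 1.49. Of 25 other immediate early genes, 4 had a row. Klf2 (11.9, 9.69 and 6.70 CPM), Dusp5 (15.9, 13.5 and 12.8) and Fosl1 (7.90, 4.75 and 6.02) were each highest in library 1. The phosphatase gene Dusp2 was lowest there, on 12, 40 and 22 counts (0.229, 0.748 and 0.415 CPM). The median log2 deviation of the 4 in library 1 was 0.42. At 1.5-fold against the mean of the others, 0 were higher there (background 13.2%) and 1 was lower (9.18%). Library 1 is also the library with Y-linked counts. In it 11 of the 15 measured mitosis genes were at least 1.5-fold higher than the mean of the others (background 13.2%). Its T cell markers (3 of 8 measured) summed to 1.10 CPM against 1.65 and 2.04. Among them Cd3g (6, 29 and 37 counts) and Ptprc (24, 41 and 48) were lowest in library 1, and Trdc (28, 18 and 23) was highest there. The suprabasal markers (2 of 11 measured) summed to 20.9 CPM in library 1 against 15.8 and 13.9. Most of that sum was Tgm3 (18.8, 12.6 and 11.4 CPM), while Krt2 was lowest in library 1 (2.11, 3.24 and 2.44 CPM). The part of these in the NR4A values was not tested.

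Across the 17 measured receptors, 5 differed by at least 1.5-fold between their highest and lowest library: Esr1, Nr1h3, Nr1i3, Nr4a2 and Nr4a3. That is 29.4%, against a background of 40.5% of the 9964 measured named genes. Low counts raise such ratios. At a mean of at least 100 counts, 3 of 12 receptors passed (25.0%) against 16.7% of 5573 genes, so the receptors lay below the background at the lower minimum and above it at the higher one. At the higher minimum the median ratio was 1.20 for the receptors and 1.21 for all genes. At 2-fold, Nr1i3 and Nr4a3 passed (11.8% of 17), against 21.0% of all measured genes, and of the 12 receptors at 100 counts or more Nr4a3 passed (8.33%), against 4.59%. Without library 1 the count of receptors past 1.5-fold was 2, and without library 3 it was 3.

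**Figure D3:**
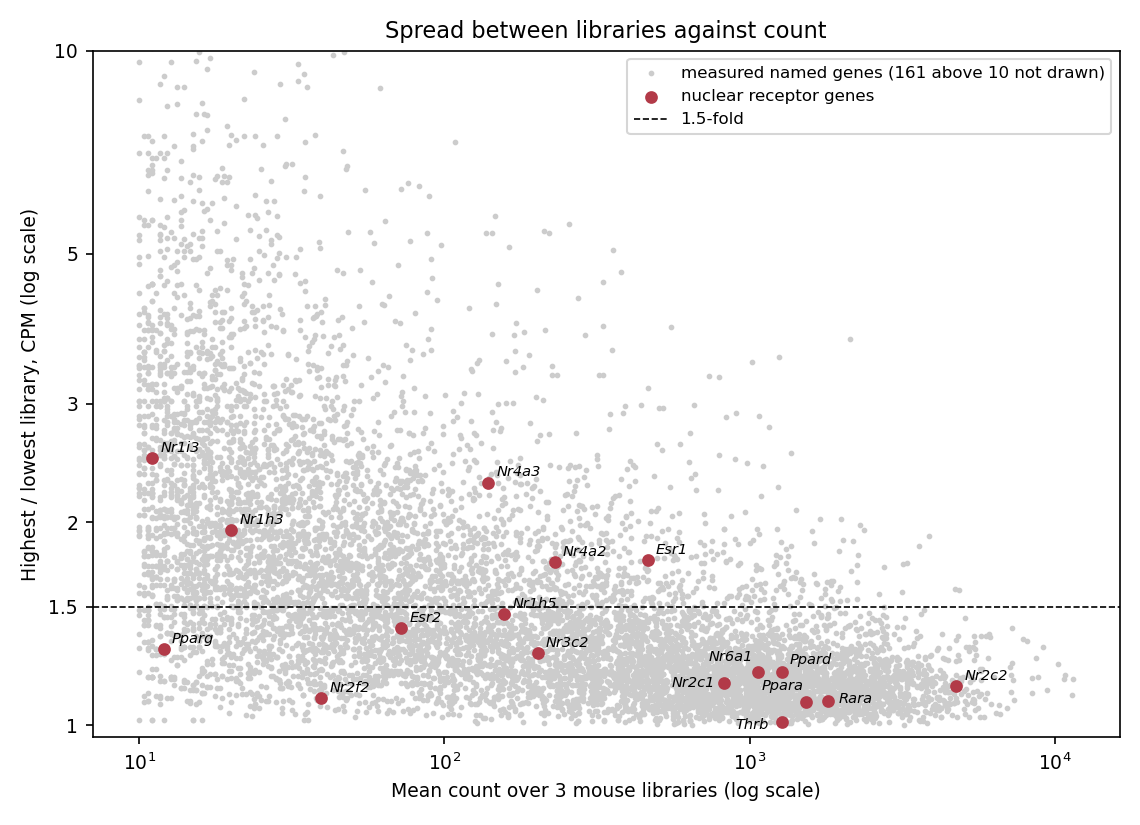
Ratio of the highest to the lowest mouse library (log scale) against the mean count (log scale) for the 17 measured receptors, in red, and all measured named genes, in grey, with 1.5-fold as a dashed line; 161 genes above 10-fold are not drawn. The 7 receptors with the most counts, from Nr2c1 up, have ratios of at most 1.20, and Esr1, Nr4a2 and Nr4a3 are the receptors above 100 counts that pass 1.5-fold.

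By direction, the receptors leaned with the rest of the genes. Library 3 was the lowest for 10 of 17 receptors and the highest for 1, Thrb, whereas over all measured genes it was the lowest for 47.6% and the highest for 24.4%. The median log2 deviation of the receptors was 0.11, 0.11 and −0.20 in libraries 1, 2 and 3, against 0.05, 0.07 and −0.10 over all measured genes. These values depend on the CPM denominator, the full library total, of which 11.4%, 11.5% and 10.6% lay in rows with an Ensembl identifier. With the total of those rows as denominator the receptor medians were 0.060, 0.051 and −0.085. In library 3, Esr1, Nr1h3 and Nr1i3 were at least 1.5-fold lower than the mean of the others (17.6%, background 15.4%) and no receptor was that much higher (background 8.08%). In library 1, Nr1i3, Nr4a2 and Nr4a3 were at least 1.5-fold higher (17.6%, background 13.2%) and none lower (background 9.18%). In library 2, Nr1h3 was higher (background 11.8%) and Nr4a3 lower (background 6.77%). These shares rest on 1 to 3 genes each. Among the 12 receptors at 100 counts or more, Nr4a2 and Nr4a3 were higher in library 1 (background 3.95%) and none lower (background 2.87%). None of the 12 was higher in library 2 (background 2.94%) and Nr4a3 was lower (background 0.700%). In library 3 none was higher (background 2.15%) and Esr1 was lower (background 6.93%).

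**Figure D4:**
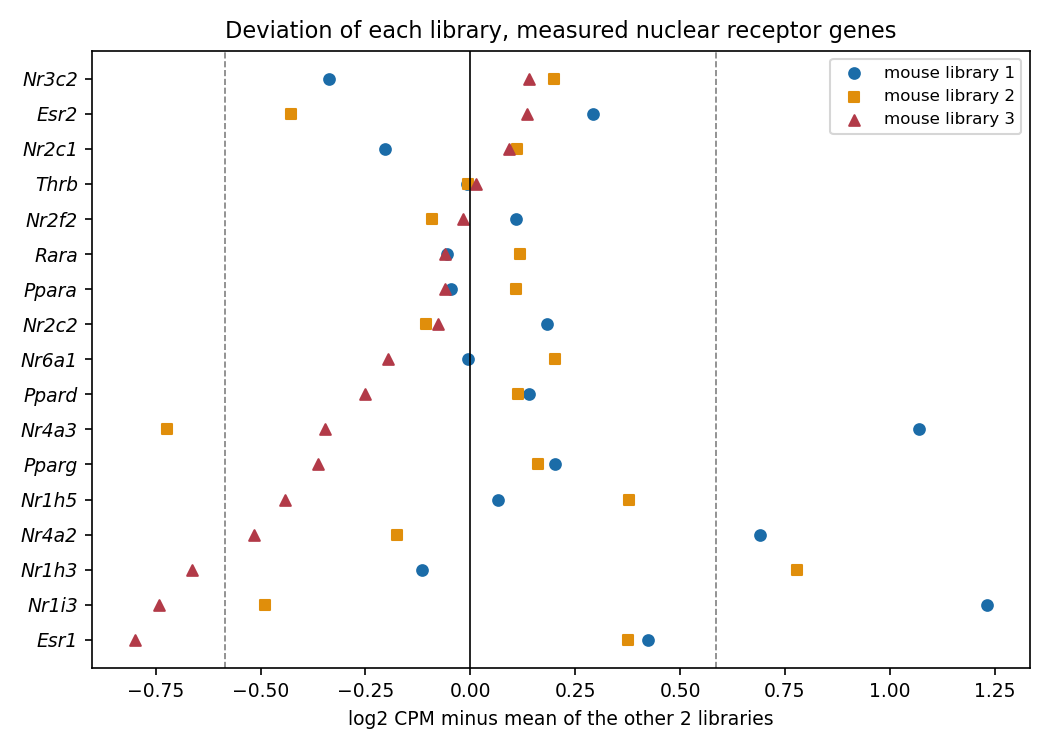
Log2 CPM of each library minus the mean of the other 2, for the 17 measured receptors, ordered by library 3, with 1.5-fold marked by dashed lines. Esr1 is the lowest point of library 3 at −0.80, the NR4A genes and Nr1i3 are the right-most points of library 1, and the points of Thrb coincide near 0.

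Receptors act through coactivators and corepressors, and most of the measured ones varied by less than 1.5-fold. All 13 coactivator genes with a row, of 27 listed, were measured, and 1 of them passed 1.5-fold between libraries (background 40.5%). All but Ppargc1a averaged 100 counts or more, where the background was 16.7%. Ncoa6 and Ncoa1, which bind liganded receptors, had 89.8 ± 7.80 and 70.1 ± 1.16 CPM, and the acetyltransferase gene Kat2a had 37.8 ± 2.42. Ncoa7 was the exception at 3.68, 4.43 and 2.49 CPM, a ratio of 1.78. Ppargc1b, a partner of oestrogen-related receptors and PPARs, had 11.3, 12.6 and 8.91 CPM, and its relative Ppargc1a 1.16, 1.59 and 1.40. Ncoa2, Ncoa3 and Med1 had no row. Of 22 corepressor genes 3 were measured and none passed 1.5-fold (background 40.5%, or 16.7% at a mean of 100 counts or more, which all 3 reached). They were the histone deacetylase gene Hdac4 at 81.5 ± 5.59 CPM, Zfp746 at 40.9 ± 2.95 and Lcorl at 26.7 ± 2.61. Ncor1, Nrip1 and the skin corepressor Hr had no row. Nor did any of 14 listed genes of steroid receptor chaperones and associated proteins, a list that also holds the glucocorticoid target Tsc22d3.

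Genes of retinoid transport, synthesis and breakdown differed between libraries in opposite directions, while Rara varied by 1.09-fold. Of 32 listed genes 13 were measured, and 8 of these passed 1.5-fold between libraries (background 40.5%). Of the 8, 4 had at most 29 counts in any library. Stra6, the cell-surface receptor that imports retinol, had 183, 90 and 16 counts (3.49, 1.68 and 0.302 CPM). It was highest in library 1 and lowest in library 3. Dhrs9, a retinol dehydrogenase, ran the other way with 225, 346 and 478 counts (4.29, 6.47 and 9.02 CPM), as did Aldh1a3, which makes retinoic acid, on 3, 16 and 29 counts. The dehydrogenase genes Rdh11 (19.4, 23.3 and 26.4 CPM) and Rdh14 (11.9, 12.8 and 13.5 CPM) were also highest in library 3, at ratios of 1.36 and 1.14. Cyp26b1, which degrades retinoic acid, had 3.62, 5.37 and 5.23 CPM.

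In counts at 1.5-fold against the mean of the others, 3 of the 13 retinoid genes were higher in library 3 (background 8.08%) and 3 lower (15.4%). In library 1, 2 were higher (13.2%) and 3 lower (9.18%). In library 2, 3 were higher (11.8%) and 1 lower (6.77%). Library 3 is again the one with low mitosis genes, and the part of that difference in these values was not tested. Listed targets of the retinoic acid receptors, which share Stra6 and Cyp26b1, among others, with this list, had 8 of 20 genes measured, of which 4 were at least 1.5-fold lower in library 3 (background 15.4%) and none higher (8.08%), while 2 were higher in library 1 (13.2%) and 2 in library 2 (11.8%). The homeobox targets Hoxb4 (7.70, 7.56 and 7.61 CPM) and Meis1 (17.6, 24.4 and 17.7 CPM) did not pass 1.5-fold.

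**Figure D5:**
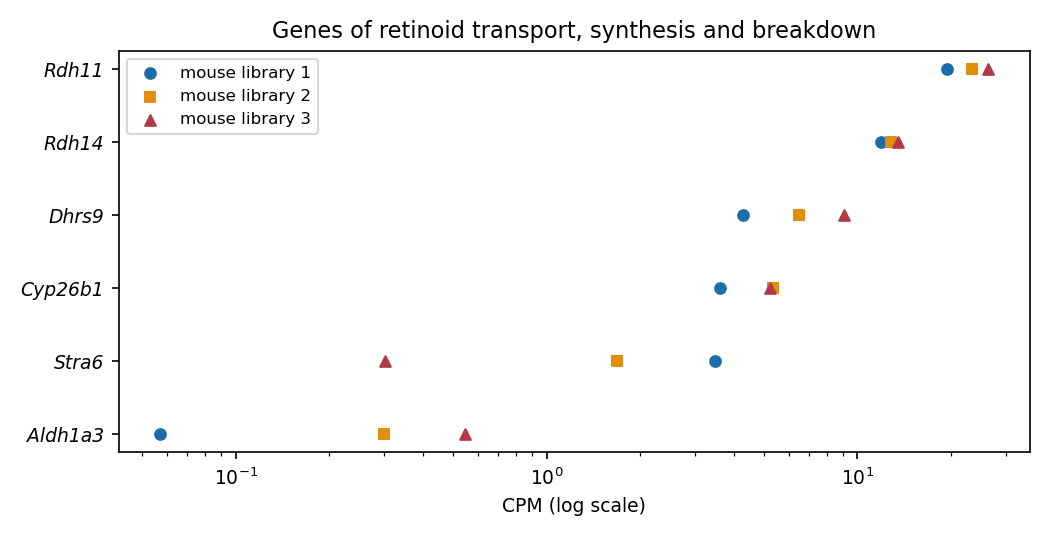
CPM (log scale) in each mouse library of 6 measured genes of retinoid transport, synthesis and breakdown. Stra6 is highest in library 1 and lowest in library 3, while Dhrs9 and Aldh1a3 are highest in library 3 and lowest in library 1.

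For the fatty acid and sterol receptors, 10 of 30 listed PPAR targets were measured. Cpt2, of mitochondrial fatty acid import, had 12.0 ± 0.0885 CPM and Eci2, of fatty acid oxidation, 23.2, 24.9 and 25.7. The less abundant Angptl4 and Pdk4, genes that PPARs induce on fasting, were lowest in library 1, with 1.16, 1.89 and 2.02 CPM for Angptl4 and 0.629, 1.38 and 1.85 for Pdk4. The muscle-type Cpt1b had 1.58, 0.131 and 1.60 CPM. Of the 10 genes, 3 were at least 1.5-fold lower in library 1 (background 9.18%) and 1 higher (13.2%), 2 were higher in library 3 (8.08%) and 1 was lower in library 2 (6.77%). Ppara itself varied by 1.08-fold. Among 5 measured LXR targets, of 21, which include Nr1h3 itself, Abcg1 (29.5, 41.6 and 32.4 CPM) and Abca2 (89.1, 82.9 and 77.9 CPM) stayed below 1.5-fold, and the lipase gene Lpl had 1.12, 0.580 and 0.321 CPM. Abca1 and Abca12 had no row.

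Of 32 listed genes that make, convert or move the steroid and thyroid ligands 9 were measured, and 2 of these passed 1.5-fold between libraries (background 40.5%). All but Cyp27b1 averaged 100 counts or more, where the background was 16.7%. Hsd17b7, a steroid and cholesterol enzyme, had 37.1 ± 3.88 CPM. Dio2, which converts thyroxine to the active hormone that Thrb binds, had 11.9, 12.6 and 7.17 CPM and was lowest in library 3, while Thrb did not vary. Cyp27b1, which makes active vitamin D, had 60, 49 and 40 counts, a ratio of 1.51 that fell to 1.40 with other scaling. Cyp24a1, the classic vitamin D-induced gene, and the aromatase gene Cyp19a1 were at 0 in every library. Of the vitamin D targets, Slc34a2 was the single measured gene of 14, at 1.81, 1.33 and 1.70 CPM. Of 20 glucocorticoid targets Cebpd (13.9 ± 0.492 CPM) and Klf15 (3.77, 3.40 and 2.95 CPM) were measured, and Fkbp5, Tsc22d3 and Per1 had no row.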

How the data were processed

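RNA of CD49f-sorted epidermal keratinocytes was sequenced by the authors after ribosomal RNA depletion with a strand-marking kit, per the labels' protocols. The deposited values are whole-number counts per annotated gene or assembled locus in each library, and the labels describe them as raw. Cutadapt, FastQC, Bowtie2, TopHat2 and the build mm10 are listed per the submitters' processing notes. Neither the counting program nor its strand setting is given in the sources used here. The 3 mouse tables were joined by identifier to GENCODE M21 (GRCm38, the mm10 assembly) for symbols, positions and exon lengths. The CPM denominator was the full total of each library, and 0.5 was added to counts before taking log2. Deviation means the log2 CPM of 1 library less the average of the other 2. Calls are folds of at least 1.5, described beside the share over all measured genes; there is 1 group, so no test was made. Intervals of counts are exact Poisson intervals (95%) and cover counting error only. Alternatives used trimmed-mean (TMM) factors from edgeR 4.0.16 and size factors from DESeq2 1.42.0 in R 4.3.3, other count minimums (1, 5, 50 and 100), a pseudocount of 2, transcript length and each library left out. The remaining work was done in Python 3.11.15 with scipy 1.17.1, pandas 2.3.3, numpy 2.4.6 and, for plots, matplotlib 3.10.9. The fold and deviation code was tested on simulated data. The receptors and the gene lists were chosen with earlier results of these data known. The text names the receptors, the 2 highest per length and the 2 most variable measured genes of each list, and a set of known partner genes; other genes, such as Mrps25, Tomm40l, Ddx3y, Dhrs9 and markers, were named after their values were seen. Some genes that this rule names, and a finger sequence, are not reported here. Finger sequences were read from GENCODE M21 transcripts by the spacing of the finger cysteines in the longest coding sequence.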

Additional observations from a re-analysis of the deposited data

How the results depend on the processing

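No paired analysis was possible because the receptors were measured in 1 group. The number of measured receptors, 17, was 21, 18 and 13 at minimums of 1, 5 and 50 counts, and 16 to 17 with a library left out. The 5 receptors past 1.5-fold stayed 5 with TMM factors, DESeq2 size factors, the total of Ensembl rows or a pseudocount of 2. They were 3 at a minimum of 50 or of 100 counts (the latter chosen after seeing the data), 9 with every row above 0, and 2 to 4 with a library left out. The median deviation of the receptors ranged over these scalings and filters from 0.029 to 0.14 in library 1, 0.051 to 0.11 in library 2 and −0.25 to −0.077 in library 3. With a library left out it was 0.018 to 0.17, −0.018 to 0.12 and −0.17 to −0.12. No move exceeded 0.177, the SD of the 3 library medians. That margin is larger than the library 1 and 2 medians of 0.11, so it cannot show that they were stable. Neighbours apart in the order of levels were 9 of 16 pairs by transcript length and 9 to 11 with a library left out, against 7. By transcript length 10 of 17 levels moved by more than their SD. Of single-gene ratios, Cyp26b1 passed 1.5-fold in 3 other scalings (up to 1.55). Without library 2 the ratio of Nr1h3 was 1.29 and without library 3 that of Esr1 was 1.02. Depth limits Nr1h3, Nr1i3 and Pparg, which rest on at most 28 counts a library.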

Other observations

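Clock genes bear on the nuclear receptors through REV-ERB and ROR, none of which was measured. Of 20 listed clock genes 7 were measured and 2 of these passed 1.5-fold between libraries (background 40.5% of all measured named genes). All 7 averaged 100 counts or more, where the background was 16.7%. Arntl, the clock activator that REV-ERB receptors repress, had 20.4, 20.7 and 19.7 CPM in libraries 1, 2 and 3, and Csnk1e, a clock kinase, 26.5, 26.6 and 27.9. Cry1, a clock repressor, had 15.9, 24.5 and 22.7 CPM, lowest in library 1. Nfil3 had 4.30, 3.68 and 1.81 CPM, lowest in library 3. Clock had no row.

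Genes of mitochondrial biogenesis, a programme tied to the oestrogen-related receptors, were measured in 9 of 20 cases, a list that includes Ppara, and 0 of 9 passed 1.5-fold (background 40.5%). All but Ppargc1a averaged 100 counts or more, where the background was 16.7%. Cycs, cytochrome c, had 26.7, 30.4 and 27.8 CPM. The median log2 deviation of the list was −0.015, 0.19 and −0.18 in libraries 1, 2 and 3.

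Of the 17 measured receptors, 14 had an SD above that of counting error alone, and Thrb, Nr2f2 and Pparg had one below it. The same share over all measured genes was not computed, so this count has no background and is not a trait of the receptors. Nr2f2 had 0.743 ± 0.0355 CPM (SD, n = 3), where counting error gives an SD of 0.118.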
